A study of Mus musculus with 6 samples.

Results

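The genes described are the 7 platelet-derived growth factor (PDGF) genes of the mouse, 4 ligands (Pdgfa, Pdgfb, Pdgfc and Pdgfd) and 3 receptors or receptor-like genes (Pdgfra, Pdgfrb and Pdgfrl). They were chosen by gene symbol, and all 7 were present among the 55401 genes of the deposited table, of which 27103 had a count in at least 1 library. The study sequenced poly(A) RNA of cultured mouse chondrocytes, the cells of cartilage, taken as primary cells and described by the series as including differentiation. There were 3 Nf2-knockout libraries and 3 control libraries, and both groups derive from Nf2f/f cells, in which the Nf2 gene is floxed. Nf2 encodes merlin, a membrane-linked protein upstream of the Hippo kinases. Every library name carries D7, whose meaning the names do not give, and those of the knockout libraries carry cKO. The labels do not say which agent deleted Nf2, how old the animals were, or whether replicates came from separate animals or cultures. The p-values therefore measure only how these libraries vary, and that variation may be technical.

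The chains of PDGF form dimers that are secreted and bind receptor tyrosine kinases on neighbouring or on the same cells. The A, B and C chains bind the receptor encoded by Pdgfra, and the B and D chains bind the one encoded by Pdgfrb. A bound receptor dimerises, phosphorylates itself and recruits adaptors that lead to the RAS, PI3-kinase, phospholipase C and STAT pathways. PDGFs are known as mitogens of mesenchymal cells, including chondrocytes, fibroblasts and pericytes. Pdgfrl encodes a protein that resembles the outer part of these receptors and lacks a kinase.

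Totals were 50906043 to 63748798 counts in Nf2-knockout cells and 55516143 to 61103617 in control libraries. Nf2 itself held 4592, 6351 and 6503 counts in Nf2-knockout libraries, against 7448, 7153 and 6979 in control libraries, so transcripts of the gene were still counted. Its mean was 95.3 CPM (counts scaled to library size) in Nf2-knockout cells and 127 CPM in control libraries, and the groups did not overlap. Nf2 passed as lower in edgeR (log2 fold change −0.41, adjusted p = 0.0305), but in 0 of 6 fits without 1 library. The treatment field of the knockout libraries names TCF21 overexpression, whereas Tcf21 had 0, 2 and 0 counts there and 0, 0 and 0 in control libraries. Markers of chondrocytes were present, with sums over 17 genes of 1071 to 2016 CPM in Nf2-knockout cells and 949 to 1421 CPM in control libraries. Fibroblast markers were more abundant than those, with sums over 12 genes of 15042 to 16893 CPM in Nf2-knockout cells and 18120 to 21261 CPM in control libraries.

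The stretches before the start sites of 3 members are shown because they belong to the receptor that fell, the ligand that rose and a ligand with no detectable change. They are the 250 bases before each RefSeq start (GRCm38.p6), read 5′ to 3′ on the strand of the gene. Capitals mark matches on either strand to the TEAD motif GGAATG, the GC box GGGCGG, the AP-1 motif TGANTCA, the TATA motif TATAAA and the CArG box.
Pdgfra, chr5:75152001-75152250, plus strand: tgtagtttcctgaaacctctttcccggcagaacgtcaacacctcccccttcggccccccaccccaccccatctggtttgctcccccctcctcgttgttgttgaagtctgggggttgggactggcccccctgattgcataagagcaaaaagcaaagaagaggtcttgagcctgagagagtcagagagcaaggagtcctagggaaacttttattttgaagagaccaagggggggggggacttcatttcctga
Pdgfa, upstream start, chr5:138994945-138995194, minus strand: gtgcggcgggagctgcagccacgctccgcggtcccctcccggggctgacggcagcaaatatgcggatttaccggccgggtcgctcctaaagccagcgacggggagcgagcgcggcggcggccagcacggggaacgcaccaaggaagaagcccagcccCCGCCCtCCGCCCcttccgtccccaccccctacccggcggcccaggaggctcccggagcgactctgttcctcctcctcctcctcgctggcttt
Pdgfa, downstream start, chr5:138994282-138994531, minus strand: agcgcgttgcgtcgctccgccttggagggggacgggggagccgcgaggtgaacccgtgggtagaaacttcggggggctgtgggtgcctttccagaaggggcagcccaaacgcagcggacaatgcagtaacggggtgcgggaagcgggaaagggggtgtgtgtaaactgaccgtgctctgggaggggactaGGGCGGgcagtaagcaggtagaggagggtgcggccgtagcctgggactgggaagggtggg
Pdgfc, chr3:81036166-81036415, plus strand: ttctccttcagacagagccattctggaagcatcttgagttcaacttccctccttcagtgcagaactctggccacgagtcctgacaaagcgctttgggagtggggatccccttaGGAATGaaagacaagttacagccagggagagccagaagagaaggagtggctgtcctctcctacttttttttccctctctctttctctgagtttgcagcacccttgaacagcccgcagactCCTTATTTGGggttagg

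The Pdgfra stretch held none of these letter strings and 54.4% G and C. The Pdgfa stretches held 2 GC boxes at the upstream start and 1 at the downstream start, with 72.4% and 66.4% G and C and 28 and 19 CpG pairs. The Pdgfc stretch held 1 TEAD motif that begins 137 bases before the start and 1 CArG box that begins 17 bases before it. Of 32851 such stretches of all RefSeq genes, 12.6% held the TEAD motif, 32.7% a GC box, 6.75% the AP-1 motif, 12.4% the TATA motif and 1.47% a CArG box, and their median G and C content was 52.4%. Sequences were matched for 4 of the 7 members.

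Per length, Pdgfra was the most abundant member in control libraries and the third in Nf2-knockout libraries. Levels between genes are given in FPKM (fragments scaled to transcript length and to library size). In Nf2-knockout libraries the order of mean FPKM was Pdgfrb (33.3), Pdgfrl (31.1), Pdgfra (21.3), Pdgfc (17.8), Pdgfa (6.94), Pdgfd (2.45) and Pdgfb, which had no count. In control libraries it was Pdgfra (53.3), Pdgfrb (33.8), Pdgfrl (21.5), Pdgfc (16.7), Pdgfa (4.06), Pdgfd (1.46) and Pdgfb (0.0887). Neighbours in the control order did not overlap in any library. In the Nf2-knockout order, Pdgfrb overlapped Pdgfrl and Pdgfra overlapped Pdgfc. Pdgfra stood above 92.3% of the 18218 tested genes in mean FPKM, Pdgfrb above 91.6%, Pdgfrl above 89.4%, Pdgfc above 84.8%, Pdgfa above 65.2%, Pdgfd above 44.3% and Pdgfb above 2.14%. The deposited FPKM spread a gene's counts over the union of its annotated exons, which is 10024 bases for Pdgfra and 5478 for Pdgfrb, so the level of Pdgfra against the other genes depends on that length.

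**Figure D1:**
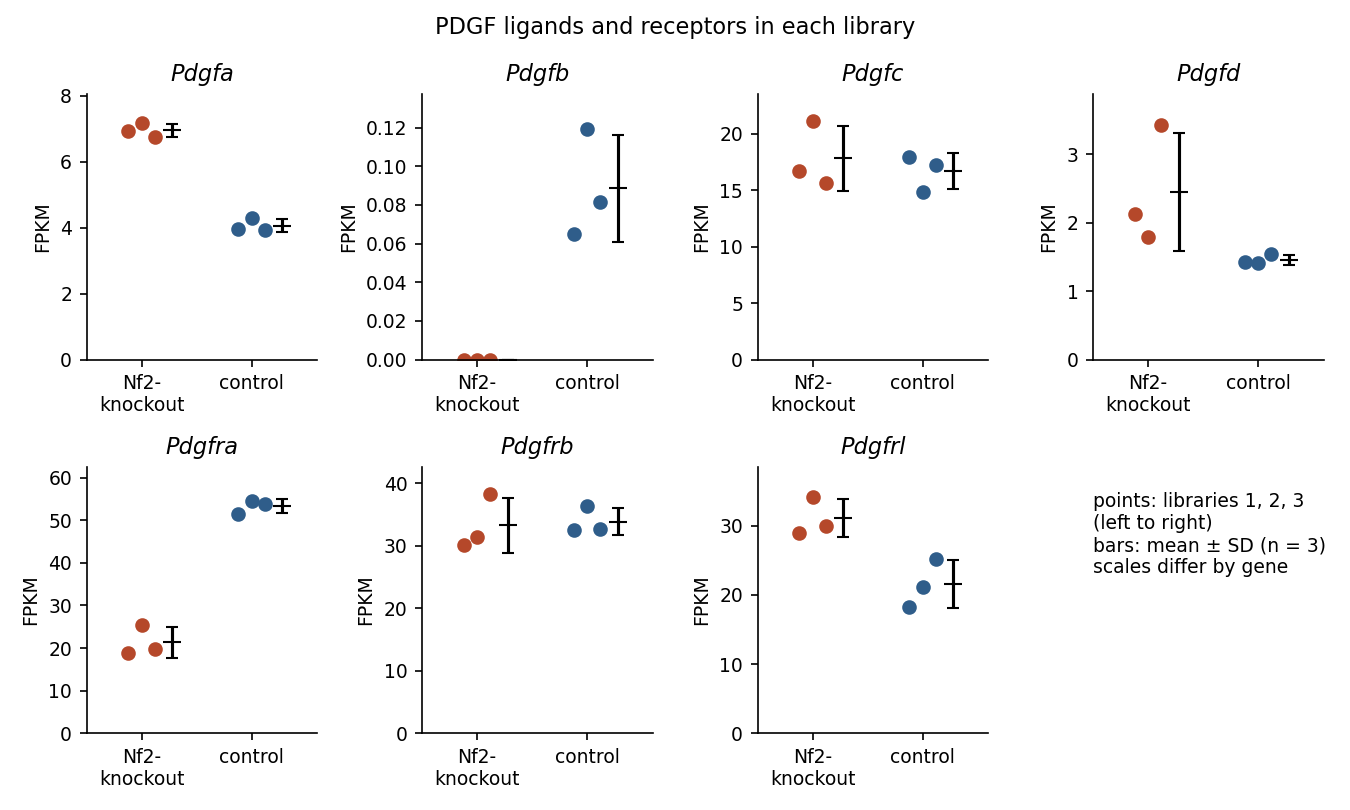
FPKM of each of the 7 members (vertical axes, which differ by gene and start at 0) in the 3 Nf2-knockout and 3 control libraries, as points, with mean ± SD beside them. The groups are apart for Pdgfa, Pdgfb, Pdgfd, Pdgfra and Pdgfrl and overlap for Pdgfc and Pdgfrb.

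In Nf2-knockout libraries Pdgfa rose and Pdgfra and Pdgfb fell, 3 of the 7 members. A gene is called changed at an adjusted p under 0.05 in edgeR's quasi-likelihood test, fitted and adjusted over all 18218 genes that passed the filter on low counts, as all 7 members did, Pdgfb through its control libraries alone, so that its count among the falls is no independent support. Fold changes are log2 ratios with Nf2-knockout on top. Of all tested genes 9.29% were called, 4.11% as higher and 5.18% as lower in Nf2-knockout libraries. With all 6 libraries, 24.8% of tested genes had an unadjusted p under 0.05 in the same test. The groups had no overlap in CPM for 5 of the 7 members, against 32.9% of all tested genes. With 1 library left out, the 1693 calls over all genes became 629 where Nf2-knockout replicate 1 was dropped, 744 where Nf2-knockout replicate 3 was, and 973 or 705 where control replicate 1 or 2 was. Rises made up 44.2% of calls in edgeR and 62.5% (974 rises and 584 falls) in limma-trend on log2(FPKM + 0.1).

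Pdgfra, the receptor of the A, B and C chains, fell in Nf2-knockout libraries. The gene (ENSMUSG00000029231, chromosome 5, 75152292 to 75198215, plus strand, GRCm38) stood at 204, 275 and 209.6 CPM in Nf2-knockout replicates 1 to 3, against 591, 629.8 and 626 CPM in control replicates 1 to 3. The highest Nf2-knockout library lay below every control library, and the control libraries lay close together. The means were 229 ± 39.7 CPM in Nf2-knockout cells and 615 ± 21.5 CPM in control libraries (SD, n = 3 each), a fall by 62.7%. The log2 fold change was −1.42 (SE 0.131, 95% interval −1.73 to −1.12, adjusted p = 0.00332). The call was kept in 6 of 6 fits that left out 1 library, at log2 fold changes from −1.57 to −1.32, with adjusted p between 0.00476 and 0.0197. A two-sided exact permutation test over the 6 libraries gave p = 0.1, and 3 against 3 cannot go lower. Among 308 tested genes with a mean CPM, which is not corrected for length, at least that of Pdgfra, itself included, 9 had a log2 fold change at least as low. Overlapping features at the locus carried few counts: Gm42803, on the opposite strand, had 0, 5 and 0 counts in Nf2-knockout cells and 19, 18 and 16 in control libraries. In bulk RNA, fewer cells that express a gene and less of its RNA per cell cannot be told apart.

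Pdgfrb, the receptor of the B and D chains, did not pass the test. The gene (ENSMUSG00000024620) stood at 178, 186 and 223 CPM in Nf2-knockout libraries, against 204, 229 and 208 CPM in control libraries. The ranges overlap. The means were 196 ± 23.8 and 214 ± 13.6 CPM, with a log2 fold change of −0.13 (SE 0.109, adjusted p = 0.538). The 95% interval of the fold, 0.767 to 1.09, holds a fall, no change and a small rise.

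The balance between the signalling receptors did not overlap between the groups. The ratio of Pdgfra to Pdgfrb in FPKM was 0.623, 0.81 and 0.514 in Nf2-knockout libraries, against 1.58, 1.5 and 1.65 in control libraries. Pdgfra made up 39.0 ± 5.43% of the summed FPKM of the pair in Nf2-knockout cells and 61.2 ± 1.09% in control libraries (SD, n = 3 each). The log2 ratio averaged −0.65 ± 0.33 in Nf2-knockout cells and 0.66 ± 0.066 in control libraries, a difference of −1.31 that does not depend on library scaling. An exact two-sided permutation test gave p = 0.1, the smallest that 3 against 3 allows. Leaving out 1 library moved the difference between −1.48 and −1.15. In plain counts, with no correction for length, Pdgfra exceeded Pdgfrb in every control library and in 2 of 3 Nf2-knockout libraries, at a mean log2 ratio of 0.22 in Nf2-knockout cells and 1.53 in control libraries. Summed FPKM of both receptors was 49.0, 56.9 and 58.0 in Nf2-knockout cells and 83.9, 91.0 and 86.6 in control libraries.

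**Figure D2:**
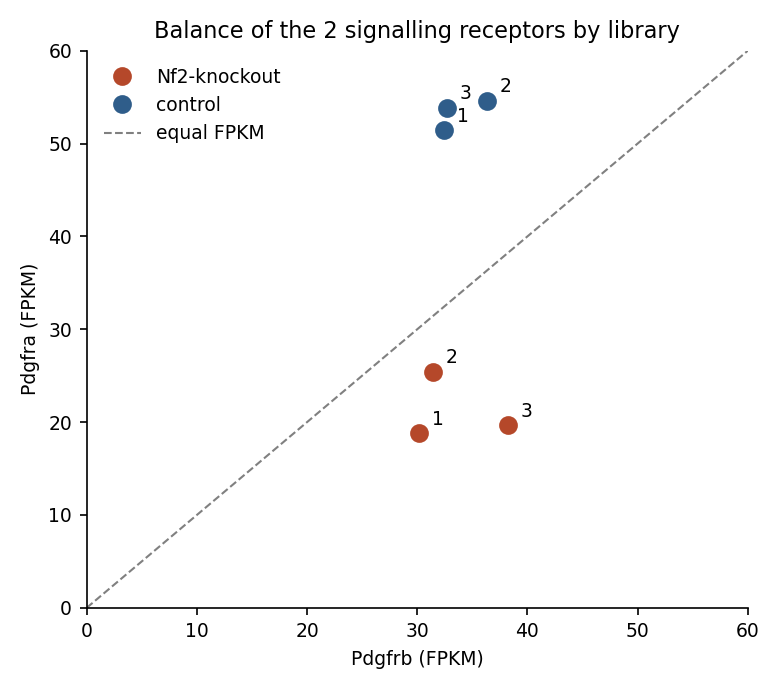
FPKM of Pdgfra (vertical) against Pdgfrb (horizontal) in each library, numbered by replicate, with a dashed line of equal FPKM. The 3 Nf2-knockout libraries lie below the line, at ratios from 0.514 to 0.81, and the 3 control libraries above it, at ratios from 1.5 to 1.65.

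Pdgfrl, the receptor-like gene without a kinase, stood higher in each Nf2-knockout library but did not pass. The gene (ENSMUSG00000031595, chromosome 8, 40926212 to 40990785, plus strand) had 98.0, 115 and 99.5 CPM in Nf2-knockout libraries, against 65.5, 76.0 and 91.3 CPM in control libraries. The groups are apart, but control replicate 3 came close to the lowest Nf2-knockout library. The log2 fold change was 0.43 (SE 0.138, 95% interval 0.10 to 0.75, adjusted p = 0.108). With DESeq2 the adjusted p was 0.0400.

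Among the ligands, Pdgfa rose. PDGF-A is a ligand of the receptor that Pdgfra encodes. The gene (ENSMUSG00000025856, chromosome 5, 138976014 to 138997370, minus strand) stood at 23.4, 24.1 and 22.4 CPM in Nf2-knockout libraries, against 14.2, 15.4 and 14.2 CPM in control libraries. Its replicates were tight in both groups, with SDs of 3.72% and 4.82% of the mean. The means were 23.3 ± 0.866 CPM in Nf2-knockout cells and 14.6 ± 0.705 CPM in control libraries (SD, n = 3 each), with a log2 fold change of 0.67 (SE 0.103, 95% interval 0.43 to 0.91, adjusted p = 0.0113). The call was kept in 6 of 6 fits without 1 library, with adjusted p from 0.0337 to 0.0457. An antisense gene, 6330403L08Rik, shares 813 exon bases with Pdgfa and had 559, 555 and 693 counts in Nf2-knockout cells and 490, 523 and 457 in control libraries (log2 fold change 0.20, adjusted p = 0.486). Pdgfa had 1220, 1523 and 1496 counts in Nf2-knockout cells and 841, 832 and 813 in control libraries. No source used here says whether counting used strand, so reads of the shared bases could belong to either gene.

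Pdgfb, the ligand of both receptors, was counted only in control libraries. The gene (ENSMUSG00000000489, chromosome 15, 79995874 to 80014977, minus strand) had 0, 0 and 0 counts in Nf2-knockout libraries, against 19, 31 and 23 counts in control libraries. Its level was low even there, at 0.0652, 0.119 and 0.0817 FPKM. With a floor of 3 counts over the whole Nf2-knockout group, the pooled control level of Pdgfb was 26.0-fold above that floor. That figure allows for counting error in the Nf2-knockout group only. Counting error of the control libraries and variation between libraries are not covered. The fall passed the test (adjusted p = 0.0241, and 0.0339 with no filter on low counts). The fitted log2 fold change of −7.67 depends on edgeR's prior count and is no bound. The call held in 1 of 6 fits without 1 library (adjusted p = 0.0493 without Nf2-knockout replicate 2) and was lost in the other fits, without Nf2-knockout replicate 1 or 3 or any 1 control, with adjusted p from 0.0629 to 0.0994. Markers of macrophages, cells that can make PDGF-B, summed to 112, 86.4 and 49.1 CPM in Nf2-knockout libraries, against 158, 422 and 209.7 CPM in control libraries. The controls ranked alike in Pdgfb counts and in these markers, with replicate 1 lowest, then replicate 3, and replicate 2 highest. No such ranking exists for the knockout libraries, since none of them had a count of Pdgfb. Of 13 tested macrophage markers 5 fell and 0 rose, beside 5.18% lower and 4.11% higher among all tested genes. Their median log2 fold change was −2.22 against −0.01 over all tested genes, and none of these markers was at 0 in every library. The most abundant were Lyz2 (lysozyme), at 29.9 ± 16.5 CPM in Nf2-knockout cells and 116 ± 78.3 CPM in control cells, Cd68, at 27.9 ± 5.57 and 47.3 ± 5.85 CPM, and the complement gene C1qc, at 4.42 ± 2.99 and 20.5 ± 11.4 CPM (SD, n = 3 each). The number that fell was 3 without control replicate 1 and 1 without Nf2-knockout replicate 2. Without control replicate 2 or 3 or Nf2-knockout replicate 1 or 3 edgeR called 0, with 9 to 11 at an unadjusted p under 0.05, and DESeq2 on all 6 libraries called 10. Endothelial markers, from another source of PDGF-B, summed to 80.8 to 94.4 CPM in Nf2-knockout cells and 63.7 to 85.3 CPM in control libraries, mostly from Eng (endoglin), and 1 of 9 tested, Kdr, rose. That call was lost without control replicate 1 or 2 or Nf2-knockout replicate 1 or 3, where edgeR called 0 endothelial markers, with 1 or 2 at an unadjusted p under 0.05; DESeq2 called 1. Platelet markers summed to 3.01 to 4.34 CPM in Nf2-knockout cells and 3.51 to 3.96 CPM in control libraries, with Gp6 and Treml1 at 0 throughout. The part of these cells in the Pdgfb counts was not tested.

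Pdgfc, the most abundant ligand, showed no detectable difference. PDGF-C is secreted in a latent form and binds the receptor that Pdgfra encodes. The gene (ENSMUSG00000028019, chromosome 3, 81036416 to 81214040, plus strand) stood at 91.8, 116 and 84.5 CPM in Nf2-knockout libraries, against 105, 87.2 and 102 CPM in control libraries. Nf2-knockout replicate 2 was the highest and Nf2-knockout replicate 3 the lowest of all 6. At −0.01 the log2 fold change (SE 0.139, adjusted p = 0.982) was close to 0, and its sign differed between scalings. The 95% interval ran from −0.33 to 0.32.

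Pdgfd, a latent ligand of the receptor that Pdgfrb encodes, stood higher in each Nf2-knockout library but did not pass. The gene (ENSMUSG00000032006, chromosome 9, 6168584 to 6378845, plus strand) had 7.26, 6.11 and 11.5 CPM in Nf2-knockout libraries, against 5.16, 5.14 and 5.66 CPM in control libraries. Nf2-knockout replicate 3 stood apart from the other 5 libraries. The fitted log2 fold change of 0.64 (SE 0.255, adjusted p = 0.175) became 0.34 without Nf2-knockout replicate 3 (adjusted p = 0.416).

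**Figure D3:**
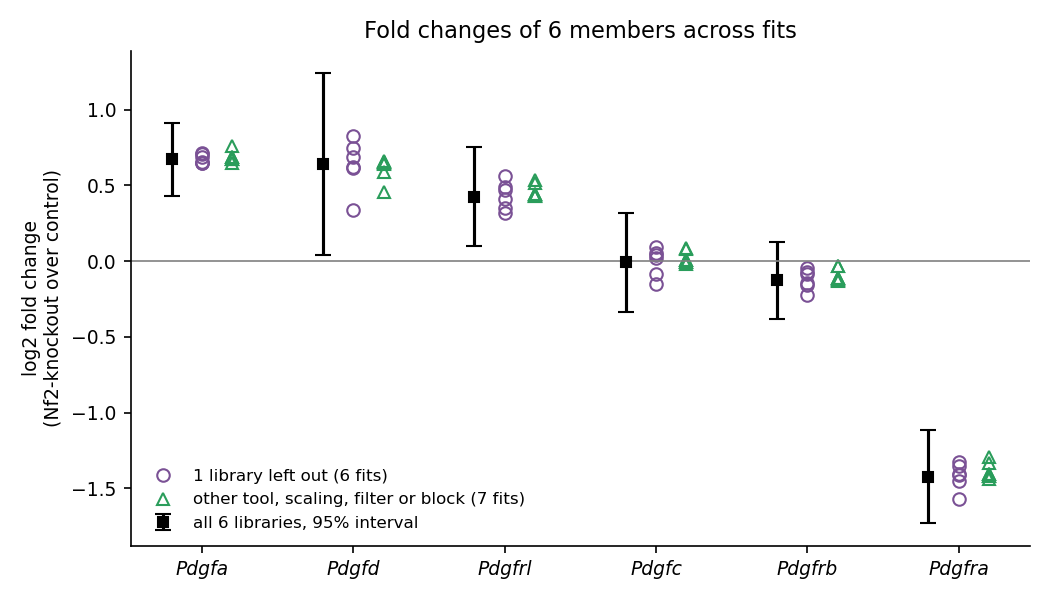
Log2 fold changes of Nf2-knockout over control (vertical) for 6 members, with squares and 95% intervals for all 6 libraries, circles for fits without 1 library and triangles for other tools, scalings, filters or the replicate block. Pdgfra stays between −1.57 and −1.29 and Pdgfa between 0.65 and 0.76, whereas the values of Pdgfc lie on both sides of 0; Pdgfb is not drawn because it had no count in Nf2-knockout libraries.

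Pdgfc supplied most of the ligand signal in either group. Summed FPKM of the 4 ligands was 25.8, 30.1 and 25.8 in Nf2-knockout cells and 23.4, 20.7 and 22.8 in control libraries. The share of Pdgfc was 65.2 ± 4.84% in Nf2-knockout cells and 74.8 ± 2.53% in control libraries, and that of Pdgfa 25.6 ± 1.59% and 18.3 ± 2.11% (SD, n = 3 each). Pdgfa stood in FPKM at log2 −1.61 ± 0.20 relative to Pdgfra in Nf2-knockout cells and −3.72 ± 0.0539 in control libraries. These sums describe transcripts and not secreted protein.

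Enzymes that activate the latent ligands moved in both directions. Of 12 tested genes of ligand processing and binding, 2 rose and 1 fell, beside a share of 9.29% among all tested genes. Plat, which encodes tissue plasminogen activator, the activating protease of PDGF-C, fell to 31.8, 40.2 and 50.6 CPM in Nf2-knockout libraries, against 85.1, 95.2 and 95.5 CPM in control libraries. The groups are far apart, and its log2 fold change of −1.17 (SE 0.169, adjusted p = 0.0099) was called in 6 of 6 fits without 1 library. St14, which encodes matriptase, a protease that can activate PDGF-D, rose to 7.14, 4.12 and 5.49 CPM in Nf2-knockout libraries, against 2.53, 2.32 and 2.28 CPM in control libraries (1.23, adjusted p = 0.0277, 1 of 6 fits). Pcsk6, a proprotein convertase gene, rose by 1.09 on the log2 scale (adjusted p = 0.0229, 0 of 6 fits). Plau, whose product urokinase also activates PDGF-D, averaged 64.7 ± 8.28 CPM in Nf2-knockout cells and 44.6 ± 6.57 CPM in control libraries (adjusted p = 0.0648). Furin, the convertase of the A and B chains, averaged 118 ± 7.47 and 111 ± 4.96 CPM (adjusted p = 0.581). The list median was 0.03, against −0.01 over all tested genes. It held 1 called gene without control replicate 2 or Nf2-knockout replicate 1 or 3.

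Most adaptors and kinases downstream of the receptors did not pass. Of 34 tested genes of receptor signalling, 2 rose and 2 fell, 4 in all, beside a share of 9.29% among all tested genes, with a list median of −0.09. Ptpn11, which encodes the SHP2 phosphatase that binds activated PDGF receptors, rose to 222.5, 222.7 and 239.5 CPM in Nf2-knockout libraries, against 152, 159 and 146 CPM in control libraries (log2 fold change 0.58, adjusted p = 0.00828, 6 of 6 fits). The groups were far apart. Pik3cb, a catalytic subunit gene of PI3-kinase, rose by 1.26 on the log2 scale (adjusted p = 0.0308, 1 of 6 fits). Stat5b fell by 0.55 (adjusted p = 0.0291, 2 of 6 fits). The adaptor gene Grb2 averaged 76.2 ± 3.33 CPM in Nf2-knockout cells and 79.9 ± 11.0 CPM in control libraries. The list held 2 called genes without control replicate 1 or Nf2-knockout replicate 1 or 3.

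Of 15 tested genes that attenuate the signal, 2 rose and 1 fell, 3 in all, beside a share of 9.29% among all tested genes, with a list median of −0.01. Dusp6, an ERK phosphatase induced by ERK signalling, rose to 62.6, 54.8 and 56.9 CPM in Nf2-knockout libraries, against 38.6, 34.3 and 37.9 CPM in control libraries (log2 fold change 0.65, adjusted p = 0.0108, 6 of 6 fits). Ptprj, a receptor phosphatase gene, rose by 0.90 (adjusted p = 0.04) and Ptpn2 fell by 0.72 (adjusted p = 0.0361), and both calls were lost in 6 of 6 fits without 1 library. Cbl, whose product ubiquitinates the receptors, averaged 23.9 ± 7.08 CPM in Nf2-knockout cells and 31.2 ± 3.03 CPM in control libraries (adjusted p = 0.35). The list held 1 called gene without control replicate 2 or 3 or Nf2-knockout replicate 1 or 3.

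Immediate early genes, which growth factors induce within minutes, had a list median of 0.34, against −0.01 over all tested genes. Of 20 tested, 2 rose and 0 fell, near the share of 9.29% called among all tested genes. A positive log2 fold change was found for 17 of the 20. With all 6 libraries, 12 of the 20 had an unadjusted p under 0.05 in edgeR, against 24.8% of all tested genes. Klf4 rose to 126, 98.1 and 116 CPM in Nf2-knockout libraries, against 66.6, 41.3 and 57.6 CPM in control libraries (log2 fold change 1.04, adjusted p = 0.0188, 3 of 6 fits). Fosb, an AP-1 subunit gene, rose by 0.95 (adjusted p = 0.0249, 2 of 6 fits). Fos averaged 115 ± 8.42 CPM in Nf2-knockout cells and 87.0 ± 8.69 CPM in control libraries (adjusted p = 0.0632), and Egr1 454 ± 17.4 and 395 ± 45.6 CPM (adjusted p = 0.288). The number called depended on the tool, with 11 in DESeq2, which called 2955 of all 18218 tested genes, and 6 in limma-trend on FPKM. With 1 library left out it was 1 without control replicate 2, and edgeR called 0 without Nf2-knockout replicate 1 or 3, with 10 and 13 at an unadjusted p under 0.05.

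Among kin of the PDGF genes, the receptors of the same structural class and the vascular endothelial growth factor family, 3 of 14 tested genes rose and 3 fell, with a list median of 0.12. The shares over all tested genes were 4.11% higher and 5.18% lower. Csf1, which encodes macrophage colony-stimulating factor, rose to 654, 681.5 and 806 CPM in Nf2-knockout libraries, against 381, 312 and 370.0 CPM in control libraries (log2 fold change 1.01, adjusted p = 0.00569, 6 of 6 fits). Its receptor gene Csf1r, also a macrophage marker, fell by 1.6 on the log2 scale (adjusted p = 0.0219, 2 of 6 fits). Flt4 and Kdr, which encode receptors of vascular endothelial growth factors, rose by 1.94 (adjusted p = 0.0101, 6 of 6 fits) and 1.36 (adjusted p = 0.0196, 2 of 6 fits). The ligand genes Vegfa and Vegfb fell, at log2 fold changes of −0.53 (adjusted p = 0.0489) and −0.42 (adjusted p = 0.0298), 1 of 6 fits each. The list held 2 called genes without control replicate 2 or Nf2-knockout replicate 1 or 3, and 3 where control replicate 1 was left out.

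**Figure D4:**
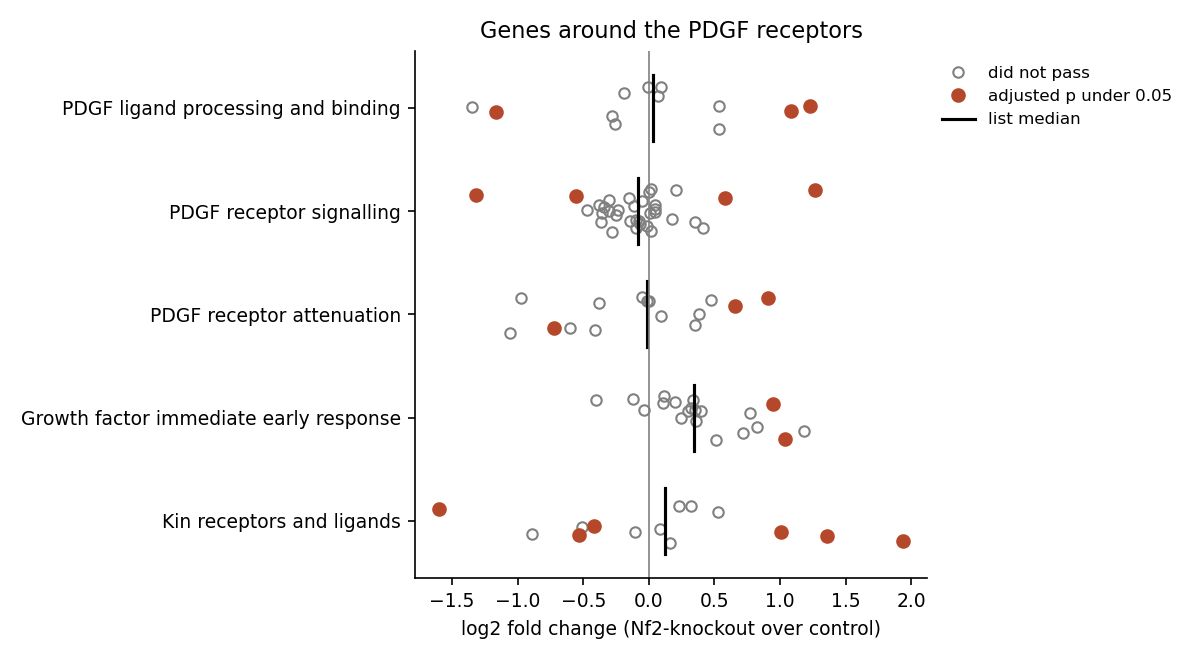
Log2 fold changes of Nf2-knockout over control (horizontal) of tested genes in 5 lists around the PDGF receptors, filled where the adjusted p was under 0.05, with the median of each list as a black line. Called genes lie on both sides of 0 in 4 lists, and the immediate early list has the highest median, 0.34.

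Pdgfra and Pdgfrb are themselves widely used to mark fibroblasts and pericytes, so the other markers of these cells are given beside them. Among all tested genes 9.29% were called, a share to set beside each count of markers. Of 11 tested fibroblast markers, 1 rose and 2 fell, with a median of −0.44. The most abundant, Fn1 (fibronectin), Col1a1 and Col1a2 (type I collagen), averaged 5803, 2945 and 2297 CPM in Nf2-knockout cells and 5961, 2932 and 3125 CPM in control libraries, and none of the 3 passed. Of the 11 tested, 4 had a positive log2 fold change. The fibroblast markers that rose or fell are not reported by name here. Without Nf2-knockout replicate 1 or any 1 control edgeR called 0 fibroblast markers, with 6 or 7 at an unadjusted p under 0.05, and DESeq2 on all libraries called 6. Of 14 tested pericyte and smooth muscle markers, 3 rose and 1 fell, with a median of 0.47 and sums of 515 to 867 CPM in Nf2-knockout cells and 258 to 387 CPM in control libraries, and Higd1b was at 0 throughout. Acta2 (smooth muscle actin) rose by 1.35 (3 of 6 fits) and Cspg4 (the NG2 proteoglycan) by 1.08 (6 of 6 fits), whereas Tagln (transgelin), at 96.2 ± 63.6 CPM in Nf2-knockout cells and 40.8 ± 12.5 CPM in control cells, and Pdgfrb did not pass. The marker that fell was Abcc9, a potassium channel subunit gene, at 0.493 ± 0.222 CPM in Nf2-knockout cells and 3.16 ± 1.55 CPM in control cells (−2.67, adjusted p = 0.0224 in edgeR, 2 of 6 fits). The number called was 2 without either control replicate 1 or 2. Of 17 tested chondrocyte markers 1 rose and 1 fell, with a median of −0.21. Col2a1 (type II collagen) rose, at 581 ± 223 CPM in Nf2-knockout cells and 231 ± 50.7 CPM in control cells (SD, n = 3 each; adjusted p = 0.0446 in edgeR, 1 of 6 fits), Col11a1 averaged 372 and 272 CPM and Comp 448 and 377 CPM. These are the 3 most abundant of the list, in which 7 of 17 had a positive log2 fold change, and the marker that fell was Col9a2 (type IX collagen), at 23.8 ± 11.7 CPM in Nf2-knockout cells and 70.0 ± 17.2 CPM in control cells (−1.55, adjusted p = 0.0482 in edgeR, 1 of 6 fits). Without Nf2-knockout replicate 1 or any 1 control edgeR called 0 of them, with 3 to 6 at an unadjusted p under 0.05, and DESeq2 called 3. Over all tested genes, 24.8% had an unadjusted p under 0.05 with all 6 libraries. Without Nf2-knockout replicate 2 edgeR called 1 chondrocyte marker. The part of cell composition in the values of Pdgfra and Pdgfrb was not tested.

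Pdgfra lies beside Kit and Kdr, receptor genes of related structure, and these windows were examined after the members' values were seen. Of 13 tested genes within 1 Mb, 1 rose and 0 fell, and the riser was Kdr. The shares over all tested genes were 4.11% higher and 5.18% lower, so that a count of 0 among 13 is near the background. The nearest named gene, Chic2, had a log2 fold change of −0.34 (adjusted p = 0.0802). Kit was barely counted, at 0.234 CPM in Nf2-knockout cells and 0.334 CPM in control libraries. Of 7 tested genes within 1 Mb of Pdgfd, 0 rose and 5 fell, among them the metalloproteinase genes Mmp13 (−2.53, 4 of 6 fits) and Mmp12 (−4.47, 6 of 6 fits) and the caspase genes Casp1 and Casp12 (1 of 6 fits each), and Dync2h1 (0 of 6 fits), while Pdgfd itself stood higher and did not pass. Around the other members 3 of 45 rose and 1 fell at Pdgfa, 1 of 45 rose and 2 fell at Pdgfb, 2 of 31 rose and 4 fell at Pdgfrb, and 0 of 14 rose and 1 fell at Pdgfrl. Of 4 genes near Pdgfc, the smallest adjusted p was 0.189.

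**Figure D5:**
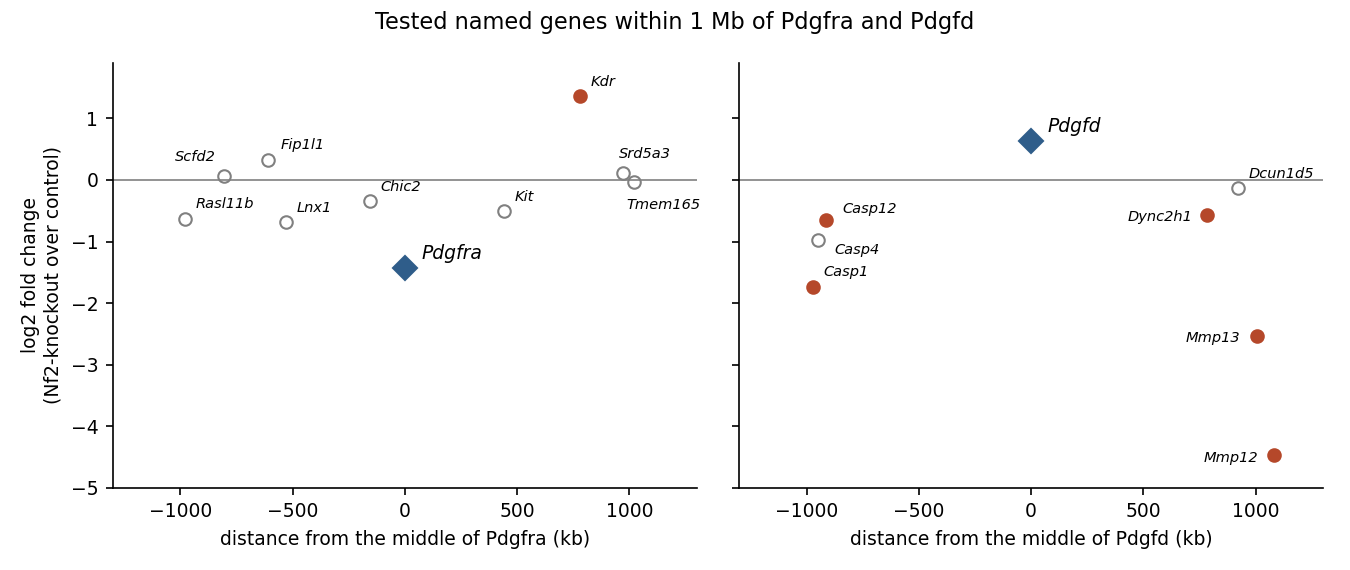
Log2 fold changes of Nf2-knockout over control (vertical) of tested genes with a full name within 1 Mb of Pdgfra (left, 9 genes) and Pdgfd (right, 7 genes), by distance from the middle of the member in kb, filled where the adjusted p was under 0.05. Near Pdgfra only Kdr passed, upward; near Pdgfd 5 genes passed, all downward.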

How the data were processed

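Poly(A) RNA of 6 libraries, 3 per group, was used, grouped and numbered by sample title. Per the submitters' processing notes, the tools were StringTie 1.3.4d, HISAT2 2.0.4, edgeR and cutadapt 1.9, with no role stated. No source used here names a genome build. Gene positions equalled those of GENCODE M21 (GRCm38) for 94.2% of 55141 shared genes, so positions are given as GRCm38. The authors deposited whole-number counts per gene, with totals from 50906043 to 63748798. The authors also deposited FPKM, with each count of 0 written as 0.0001, and FPKM values of the members followed the counts over the union of annotated exons at a near-constant factor.

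Counts were tested with edgeR 4.0.16 in R 4.3.3 (filterByExpr, TMM, glmQLFit, glmQLFTest, group alone, two-sided, Benjamini-Hochberg over 18218 genes, threshold 0.05), with a prior count of 0.125. The SE was taken as the log2 fold change, without sign, divided by √F, and the 95% intervals use it with the test's degrees of freedom. CPM carry TMM scaling. Tests were checked on simulated counts. Alternatives were DESeq2 1.42.0, its size factors, other filters, the replicate block, limma-trend (limma 3.58.1) on log2(FPKM + 0.1) or log2(FPKM + 1) and leaving out each library. Members and lists were chosen with earlier results of these data known. Named genes were all members, up to 4 called genes per process list with the smallest p, the 3 most abundant markers per cell type and those at 0, and the 2 genes most like each member. Others named beside a count were chosen for their known role or after their values were seen. Some genes of the lists are not reported by name here.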

Additional observations from a re-analysis of the deposited data

How the results depend on the processing

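Pdgfra and Pdgfa kept their direction and their call in each of the 13 alternative fits. Pdgfb was left out by the stricter filter and the FPKM filter. Elsewhere its log2 fold change stayed negative, from −7.85 to −7.44 in the fits without 1 library. With 0 counts of Pdgfb in each Nf2-knockout library, no fit could reverse that direction. Pdgfrb, Pdgfd and Pdgfrl kept their direction in each fit, and Pdgfrl passed with DESeq2 (0.44). Pdgfc, near no change, reversed to 0.0077 with DESeq2 or its size factors and to 0.0847 and 0.0808 in limma-trend with pseudocounts of 0.1 and 1, and ran from −0.15 to 0.0939 with 1 library left out. The calls over all genes numbered 2955 with DESeq2, and 629 to 1186 with 1 library left out. The cause of these shifts was not tested. With the replicate block there were 923 calls, Pdgfb at −7.68 lost its call (adjusted p = 0.135) and Pdgfra (−1.44) and Pdgfa kept theirs. Libraries of the same number correlated at −0.0895, 0.0296 and 0.0234 in their deviations from group means. With 3 libraries per group these values cannot decide whether libraries of the same number share an animal or a culture. Among the gene lists, DESeq2 called 11 immediate early genes where edgeR called 2, 6 fibroblast markers where it called 3, 10 macrophage markers where it called 5 and 2 osteoblast markers where it called 0. The replicate block left 1 processing, 1 attenuation, 1 immediate early and 2 macrophage genes. On FPKM with a pseudocount of 0.1 there were 1 attenuation, 6 immediate early, 3 kin, 3 macrophage and 1 osteoblast calls, and 1 macrophage call with a pseudocount of 1. The stricter filter gave 6 immediate early calls. The 2 chondrocyte calls became 1 with DESeq2 size factors and 0 with no filter, the replicate block or FPKM, with 6 or 7 at an unadjusted p under 0.05 and 3 called by DESeq2. Pdgfb, with at most 31 counts in a library, is the member that depth limits most.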

Other observations

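The genes whose profiles over the 6 libraries were most like each member, by Pearson correlation of log2(CPM + 0.1) among 9223 genes with a mean of at least 10 CPM, are given as a description, since all points share the same libraries and groups. For Pdgfa they were Ankrd1, a widely used target of YAP (r = 0.996), and the actin bundler gene Actn1 (r = 0.996). Ankrd1 averaged 21.03 CPM in Nf2-knockout cells and 10.2 CPM in control libraries (log2 fold change 1.04), and Actn1 averaged 266 and 164 CPM (0.69). For Pdgfra they were the scavenger receptor gene Scara3 (r = 0.999) and the respiratory chain gene Cox7c (r = 0.997). Scara3 fell to 71.9 CPM in Nf2-knockout libraries, against 295 CPM in control libraries (−2.04, adjusted p = 0.00304 in edgeR), and Cox7c averaged 199 and 321 CPM (−0.69). For Pdgfb they were Epc1 (log2 fold change −0.35, adjusted p = 0.0551 in edgeR) and Rhobtb2 (−0.46, adjusted p = 0.0317), with r = 0.997 each. Pdgfb had 0 counts in each Nf2-knockout library, so its profile does not vary there and r largely restates the split between groups. For Pdgfc they were Birc2 (0.943) and Ptcd1 (0.94), and for Pdgfd Smad2 (0.991) and Med17 (0.989). For Pdgfrb they were Aqr (0.993) and Ro60 (0.985), and for Pdgfrl Zdhhc18 (0.989) and Cybc1 (0.986).

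The remaining cell types examined gave no called marker in edgeR. Osteoblast markers summed to 8322 to 10528 CPM in Nf2-knockout cells and 8223 to 11135 CPM in control libraries, nearly all from Spp1 (osteopontin), at 9755 ± 1267 and 9719 ± 1469 CPM (SD, n = 3 each). Adipocyte markers summed to 1063 to 1394 CPM in Nf2-knockout cells and 920.2 to 1328 CPM in control libraries, led by Lpl, Fabp4 and Adipoq. Skeletal muscle markers summed to 1.67 to 2.41 CPM in Nf2-knockout cells and 1.67 to 4.33 CPM in control libraries, with Myod1, Myf5 and Mymk at 0 throughout. Counts at an unadjusted p under 0.05 were 2 of 8 osteoblast, 1 of 7 adipocyte, 0 of 3 muscle and 0 of 4 platelet markers. The share over all tested genes was 24.8%. DESeq2 called 2, 0, 0 and 0 markers of these types. With 1 library left out edgeR called 1 osteoblast marker without control replicate 2 and 1 muscle marker without Nf2-knockout replicate 3.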
